A study of Mus musculus with 10 samples.

Results

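NF-kappa B is a family of dimeric transcription factors, and 10 of its genes were described in macrophages of lung metastases and of normal lung. The members were named by symbol: the subunits Nfkb1, Nfkb2, Rel, Rela and Relb, and the inhibitors Nfkbia, Nfkbie, Nfkbiz, Bcl3 and Tnfaip3. All 10 were found among the 24538 genes of the count files, and all 10 were among the 11571 genes that were tested because their mean FPKM reached 1 in either group. Metastasis-associated macrophages (MAMs) were CD11B+CD11C- and resident alveolar macrophages (RAMs) were CD11B-CD11C+, both sorted as CD45+, F4/80+, LY6C-, MRC1+ cells of high forward scatter from wild type C57BL6/J mice aged 8 to 10 weeks. MAMs came from metastases seeded by tail vein injection of E0771-LG cells, a mouse mammary tumor line, into females of 6 to 8 weeks, and dissected metastases of 2 to 4 mice were pooled for a sample by the labels, while the study's text gives a wider range. RAMs came from normal lungs. Both tissues were digested with the transcription inhibitors alpha-amanitin and actinomycin D. There were 5 libraries in each group. The groups differed in tissue and in sorting gate as well as in the presence of metastases, so these cannot be told apart. In bulk RNA, fewer cells of a type and less RNA per cell cannot be told apart either. The study's methods describe samples as single mice or as pools of metastases, without tying each library to its animals, and p-values measure the spread between these libraries.

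In resting cells NF-kappa B dimers are held in the cytoplasm by I kappa B proteins. Signals from Toll-like receptors and from receptors of tumor necrosis factor and interleukin-1 activate I kappa B kinase, which marks I kappa B for degradation and frees the dimers to enter the nucleus. A slower, noncanonical branch runs through processing of the Nfkb2 product and acts mainly with the Relb product. Several members are themselves known targets of NF-kappa B, so the pathway writes its own feedback, and in macrophages it drives genes of cytokines, chemokines and survival factors.

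NF-kappa B dimers bind the kappa B consensus, a motif of 10 bases, and this motif was searched on both strands of the RefSeq promoter windows (GRCm38.p6), which reach from 250 bases before a start to 50 bases into the transcript. Windows were found for 7 of 10 members. Nfkb1, Relb and Nfkbiz had none. The motif was present for 6 of 7 members (85.7%), all but Rela, compared with 9.55% of 27025 genes with a window. A gene was counted when any of its windows held a match. Several members were known targets of NF-kappa B beforehand, so this contrast is a description and was not tested. The stretches with matches are shown 5' to 3' because the results turn on these genes, with capitals for the matched bases. They cover 150 bases before the start for 5 members, and 30 bases around the match for Bcl3, whose match lay at bases 3 to 12 of the transcript.
Nfkb2: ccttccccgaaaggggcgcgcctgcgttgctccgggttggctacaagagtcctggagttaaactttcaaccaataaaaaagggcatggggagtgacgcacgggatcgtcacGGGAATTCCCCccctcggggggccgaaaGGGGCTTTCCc
Rel: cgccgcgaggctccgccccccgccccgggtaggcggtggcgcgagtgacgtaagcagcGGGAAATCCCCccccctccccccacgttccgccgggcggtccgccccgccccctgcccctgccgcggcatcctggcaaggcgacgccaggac
Nfkbia: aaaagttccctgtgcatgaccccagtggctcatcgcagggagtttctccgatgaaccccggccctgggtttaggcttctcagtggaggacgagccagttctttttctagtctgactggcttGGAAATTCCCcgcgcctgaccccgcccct
Nfkbie: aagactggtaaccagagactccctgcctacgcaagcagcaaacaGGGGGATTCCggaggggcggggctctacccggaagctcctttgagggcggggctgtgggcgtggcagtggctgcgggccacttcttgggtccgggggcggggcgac
Bcl3: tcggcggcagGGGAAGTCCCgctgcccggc
Tnfaip3: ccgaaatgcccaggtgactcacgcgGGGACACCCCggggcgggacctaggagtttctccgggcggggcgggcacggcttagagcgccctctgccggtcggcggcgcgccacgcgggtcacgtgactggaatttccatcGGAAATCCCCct
The stretches lay at chr19:46304587-46304736 on the plus strand, chr11:23770970-23771119 on the minus strand, chr12:55492648-55492797 on the minus strand, chr17:45555550-45555699 on the plus strand, chr7:19822734-19822763 on the minus strand and chr10:19015411-19015560 on the minus strand. The Nfkbia match lay 29 to 20 bases upstream of the start and the Nfkbie match 106 to 97 bases upstream. In Nfkb2, 2 overlapping matches lay 39 to 29 bases upstream and another 11 to 2 bases upstream, and 2 further windows of this gene also held matches. Rel had 2 overlapping matches 92 to 82 bases upstream. Tnfaip3 had matches 125 to 116 and 12 to 3 bases upstream, and its other window had none. All these distances are from the start of the RefSeq window. The Nfkb2 and Tnfaip3 stretches lie inside the GENCODE positions of these genes, which begin further upstream. Promoters of all tested genes held the motif in 12.0% of 9016 genes with a window. The share was 14.6% among genes higher in MAMs (375 of 2571) and 11.5% among genes lower in MAMs (285 of 2486), and these shares were not tested. A match describes letters in the window and is not a measured binding site.

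The sorted cells were checked by their marker genes, with levels in CPM, which scale a count to the normalized total of the tested genes in its library. Counts on genes summed to between 50746305 and 87523247 per library. Itgam, the gene of CD11B, was at 6270 CPM in MAMs and 64.3 in RAMs, and Itgax, the gene of CD11C, at 171 in MAMs and 991 in RAMs. Alveolar macrophage markers summed to 268 to 564 CPM for MAMs against 10197 to 13056 for RAMs, with 9 of 10 lower in MAMs. Of 12 monocyte and macrophage markers 11 were higher in MAMs, whereas their sums, 24992 to 32878 CPM for MAMs against 26107 to 33251 for RAMs, overlapped, and Lyz2, the most abundant, was lower in MAMs. Lymphocyte markers summed to 40.2 to 48.5 CPM for MAMs against 258 to 330 for RAMs, where Cd2 led with 282 CPM, and of 6 tested 1 was higher and 1 lower in MAMs. Neutrophil markers summed to 25.6 to 102 CPM for MAMs and 70.8 to 126 for RAMs, led by Mmp8, with 7 of 11 and 8 of 11 under 1 CPM, and of 4 tested 2 were higher and 1 lower in MAMs. Dendritic cell markers reached 24.8 CPM in MAMs and 32.9 in RAMs at most. Of 5 tested 3 were higher and 2 lower in MAMs, and the most abundant over all libraries, Clec9a, was among the lower ones at 1.01 CPM in MAMs and 19.4 in RAMs. Markers of lung epithelium reached 40.2 CPM in MAMs and 50.1 in RAMs. Of 6 tested 4 were lower in MAMs, while the most abundant, Hopx, was the 1 higher gene at 21.0 CPM in MAMs and 1.10 in RAMs. Markers of stroma summed to 47.0 to 87.4 CPM for MAMs against 137 to 221 for RAMs, where Vwf alone had 151 CPM against 19.3 in MAMs. Of 6 stroma markers tested 4 were higher in MAMs and only Vwf was lower. Epithelial and tumor markers summed to 19.6 to 40.5 CPM for MAMs and 590 to 703 for RAMs. In RAMs this sum was mostly Krt19 with 436 CPM, Cdh1 with 131 and Epcam with 76.8. Under 1 CPM were 7 of 10 of these markers in RAMs and 5 of 10 in MAMs, and of 5 tested 1 was higher and 3 lower in MAMs. Erythrocyte markers stayed at or under 5.28 CPM. The part of other cell types in the results on the members was not tested.

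Of 10 members 8 had a higher level in MAMs and none a lower one once the p-values of edgeR's quasi-likelihood test were adjusted by Benjamini-Hochberg over all tested genes, with a threshold of 0.05. Among all tested genes 28.9% were higher and 27.3% lower by this rule. The 8 genes were Nfkb2, Rel, Relb and all 5 inhibitors. A fold change over 2 was added for differential expression, and 5 members passed it, all higher in MAMs (Relb, Nfkbia, Nfkbie, Nfkbiz and Bcl3), compared with 15.3% of tested genes differentially expressed upward and 15.1% downward. In the same 8 members every MAM library was above every RAM library, a separation seen in 23.7% of tested genes, while 21.2% were separated the other way. The exact permutation test, two-sided, gave p = 0.00794 for each of these 8, the smallest that 5 against 5 libraries allow. Full separation of the groups gives this value by itself, so it adds nothing to the separation, and it was not adjusted. The median log2 fold change was 1.26 over the members and -0.02 over all tested genes.

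**Figure D1:**
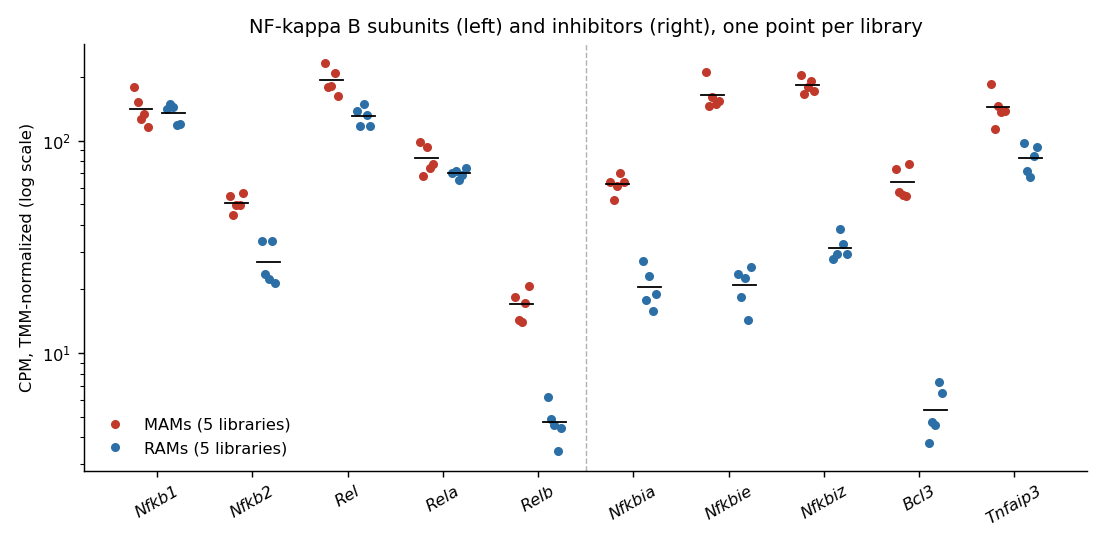
CPM (log scale) of the 10 members in 5 MAM libraries (red) and 5 RAM libraries (blue), with 1 point per library and a black line at the group mean. Points of Nfkb1 and Rela overlap between the groups, and the other 8 members are separate, most widely Bcl3 at 54.7 to 77.9 in MAMs and 3.78 to 7.26 in RAMs.

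Among the canonical subunits, Nfkb1 encodes the precursor of a DNA-binding subunit that lacks an activation domain of its own (chr3:135584655-135691547, minus strand, GENCODE M21 on GRCm38). Its level was 178, 152, 126, 133 and 116 CPM in MAM replicates 1 to 5. It was 141, 148, 144, 119 and 119 CPM in RAM replicates 1 to 5. The groups overlapped through most of their range, and the log2 fold change of 0.07 (standard error, SE, 0.115, 95% interval -0.18 to 0.32, edgeR adjusted p = 0.634) did not pass the threshold. The sign of this difference turned in 5 of 20 alternatives, among them a fit without MAM replicate 1. Rela, the subunit with the main activation domain of the canonical dimer (chr19:5637483-5648130, plus strand), had 98.1, 68.1, 93.6, 74.0 and 77.8 CPM in MAMs. The RAM libraries lay closer together at 70.5, 72.1, 65.2, 68.5 and 74.0 CPM. MAM replicates 1 and 3 were above the rest and MAM replicate 2 was within the RAM range, and MAM replicate 4 was level with the highest RAM library. The log2 fold change of Rela was 0.23 (SE 0.109, 95% interval 9.7e-05 to 0.47, edgeR adjusted p = 0.0825). Without MAM replicate 2 it was 0.29 and passed the threshold (edgeR adjusted p = 0.0295).

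Rel, the subunit c-Rel of lymphoid and myeloid cells (chr11:23736847-23770970, minus strand), was at 231, 179, 181, 207 and 163 CPM in MAMs. In RAMs it was at 137, 117, 149, 132 and 117 CPM. The lowest MAM library was above the highest RAM library, and the log2 fold change of 0.56 (SE 0.104, edgeR adjusted p = 3.0e-04) was a fold of 1.47. Thus, of the 3 canonical subunit genes, Rel passed the test and the other two did not.

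Both genes of the noncanonical branch were higher in MAMs. Nfkb2, which encodes the precursor that this branch processes (chr19:46304320-46312385, plus strand), was at 54.6, 44.4, 49.7, 49.9 and 56.3 CPM in MAMs. It was at 33.8, 23.5, 22.2, 33.7 and 21.4 CPM in RAMs, where replicates 1 and 4 stood above the other three. The log2 fold change of Nfkb2 was 0.92 (SE 0.154, edgeR adjusted p = 1.1e-04), a fold of 1.89. It passed a fold of 2 in 4 of 20 alternatives, including those without RAM replicate 1 or without RAM replicate 4. Exons of Nfkb2 overlap those of Psd on the opposite strand, which had 386 to 1269 counts in MAMs and 198 to 871 in RAMs, and the strand setting of the counting is not given in the sources used here, so the level of Nfkb2 is uncertain to that extent. Relb, its partner (chr7:19606217-19629438, minus strand), was at 18.4, 14.3, 13.9, 17.2 and 20.8 CPM in MAMs. The RAM libraries had 6.23, 4.88, 4.55, 3.44 and 4.43 CPM, resting on 165 counts or more per library. The groups were well apart, with a log2 fold change of 1.84 (SE 0.225, edgeR adjusted p = 4.7e-06) and a fold of 3.59.

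Both classical I kappa B genes among the members were higher in MAMs. Nfkbia encodes I kappa B alpha, the fast feedback inhibitor (chr12:55489410-55492647, minus strand). Its level was 63.6, 52.6, 61.2, 70.2 and 63.8 CPM in MAMs and 27.1, 17.7, 23.1, 15.8 and 19.0 CPM in RAMs. The log2 fold change was 1.60 (SE 0.152, edgeR adjusted p = 3.1e-07), a fold of 3.03. Nfkbie, which encodes I kappa B epsilon (chr17:45555703-45563169, plus strand), was at 211, 145, 159.8, 149 and 153 CPM in MAMs. In RAMs it was at 23.4, 18.4, 22.6, 14.4 and 25.3 CPM. MAM replicate 1 stood above the other MAM libraries, and the lowest MAM library was still far above the RAM libraries. The log2 fold change of Nfkbie was 2.97 (SE 0.159, edgeR adjusted p = 4.1e-10), a fold of 7.86.

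The nuclear I kappa B genes were also higher in MAMs. Their products bind dimers in the nucleus and can activate as well as repress genes, so the name inhibitor covers only part of what they do. Bcl3 (chr7:19808462-19822770, minus strand) was at 73.8, 57.5, 55.5, 54.7 and 77.9 CPM in MAMs. In RAMs it was at 3.78, 4.71, 4.58, 7.26 and 6.48 CPM. It had the largest change of the members, with a log2 fold change of 3.58 (SE 0.200, edgeR adjusted p = 6.7e-10) and a fold of 11.9. Of the tested genes 5.77% had a higher log2 fold change. The RAM level was 8.40% of the MAM level, while the lowest RAM level among 115 genes over 1000 CPM in MAMs was 0.912%. Exons of Bcl3 overlap the antisense gene Gm16175, which is not among the counted genes. Nfkbiz, which encodes I kappa B zeta (chr16:55811375-55838899, minus strand), was at 204, 166, 179.5, 191 and 171 CPM in MAMs. It was at 27.6, 29.4, 38.1, 32.5 and 29.1 CPM in RAMs. Both groups were tight, with a coefficient of variation of 8.51% in MAMs and 13.4% in RAMs, and the log2 fold change was 2.54 (SE 0.106, edgeR adjusted p = 2.5e-11).

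Tnfaip3 encodes a ubiquitin-editing enzyme that ends signaling above I kappa B kinase (chr10:19000910-19015657, minus strand). It was at 185, 113, 145, 136 and 138 CPM in MAMs and at 97.6, 72.2, 67.4, 84.4 and 93.0 CPM in RAMs. The groups did not overlap, and its change was the smallest among the inhibitors, with a log2 fold change of 0.79 (SE 0.134, edgeR adjusted p = 1.3e-04) and a fold of 1.73. Its 95% interval, 0.50 to 1.07, was below that of Nfkbia, 1.27 to 1.93.

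**Figure D2:**
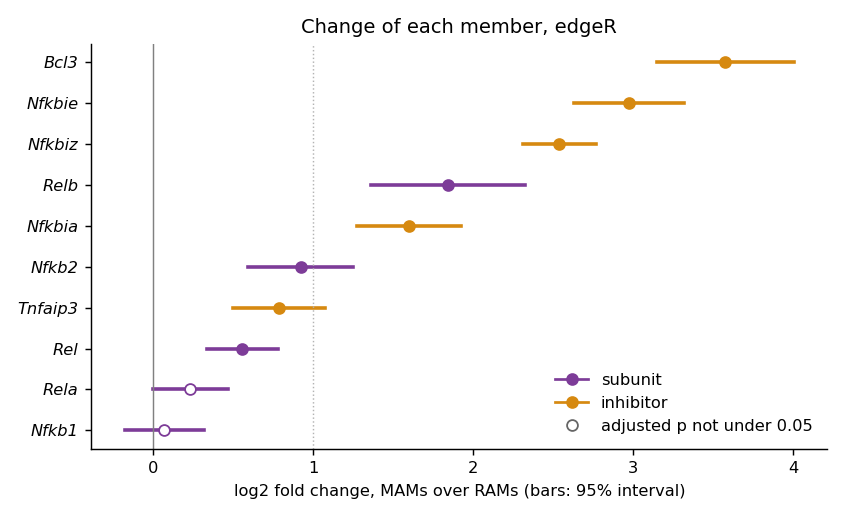
Log2 fold change of each member, MAMs over RAMs, with bars for the 95% interval of the edgeR fit, purple for subunits, orange for inhibitors and open points where the adjusted p was not under 0.05. Bcl3, Nfkbie and Nfkbiz lie highest at 3.58, 2.97 and 2.54, Nfkb1 and Rela lie lowest at 0.07 and 0.23, and the dotted line marks a fold of 2.

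MAM replicate 1 was the highest MAM library in 6 of 10 members and MAM replicate 2 the lowest in 6 of 10, compared with 23.5% and 20.2% of tested genes. The median coefficient of variation of the members was 16.1% in MAMs and 18.4% in RAMs, against 19.5% and 16.3% over all tested genes.

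Levels of different genes were compared by FPKM, which the authors scaled by transcript length. In RAMs Rel led with 38.9 ± 5.51 FPKM (SD, n = 5), followed by Rela with 33.5 ± 1.80 and Nfkb1 with 30.8 ± 3.59, and neighbors in this order overlapped in range. Tnfaip3 with 17.4 ± 2.61 and Nfkbia with 15.4 ± 3.0 came next and overlapped each other. Nfkbie at 7.77 ± 1.55, Nfkb2 at 7.42 ± 1.48 and Nfkbiz at 6.73 ± 0.869 FPKM also overlapped, and Bcl3 at 4.32 ± 1.28 and Relb at 2.29 ± 0.292 were separate from each other. In MAMs the order was different, with Nfkbie highest at 64.2 ± 12.2 FPKM. It was followed by Rel at 57.1 ± 10.96, Nfkbia at 47.3 ± 4.19, Bcl3 at 46.3 ± 6.70, Nfkbiz at 42.7 ± 3.55, Rela at 38.4 ± 5.81, Nfkb1 at 30.6 ± 6.58 and Tnfaip3 at 29.3 ± 5.23 FPKM. Neighbors among these 8 genes overlapped in range. Nfkb2 at 17.5 ± 1.21 FPKM and Relb at 8.22 ± 1.23 FPKM were separate at the low end.

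The sum of the 5 inhibitors was 230 ± 26.6 FPKM in MAMs and 51.7 ± 4.47 in RAMs (SD, n = 5 each). Summed over the 5 subunits the level was 152 ± 20.1 and 113 ± 6.44 FPKM. The ratio of inhibitors to subunits was thus 1.45 to 1.71 in MAM libraries and 0.421 to 0.542 in RAM libraries, with no overlap. This ratio is given as a description of transcripts, without a test, and says nothing of protein. Its inhibitors include Bcl3 and Nfkbiz, whose products can also activate genes, so it does not measure a balance of inhibition over activation. Within the subunits, Nfkb2 held 11.6% ± 1.51 of the summed FPKM in MAMs and 6.59% ± 1.35 in RAMs, and Relb held 5.46% ± 0.931 and 2.03% ± 0.240. Nfkb1 held 20.1% ± 3.15 in MAMs and 27.3% ± 2.2 in RAMs. Rel held the largest FPKM share in both groups, 37.4% ± 2.94 and 34.3% ± 3.24. That rank depended on the length used: with CPM per kilobase of the longest GENCODE transcript, Nfkb1 led with 31.2% and 38.4%, and Rel held 23.7% and 20.8%. The longest Nfkb1 transcript, of 4149 bases in 1 exon, is not annotated as protein-coding, and the longest protein-coding one has 4117 bases. The longest transcript and the longest protein-coding one differed more for Relb (3273 and 2209 bases), Nfkbie (3006 and 2435) and Tnfaip3 (6199 and 4422). Within the inhibitors the makeup turned over. Tnfaip3 held 33.7% ± 3.31 in RAMs and 12.7% ± 0.95 in MAMs, whereas Bcl3 held 8.45% ± 2.78 in RAMs and 20.2% ± 2.09 in MAMs. Nfkbie held 15.0% ± 2.33 in RAMs and 27.8% ± 2.31 in MAMs.

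**Figure D3:**
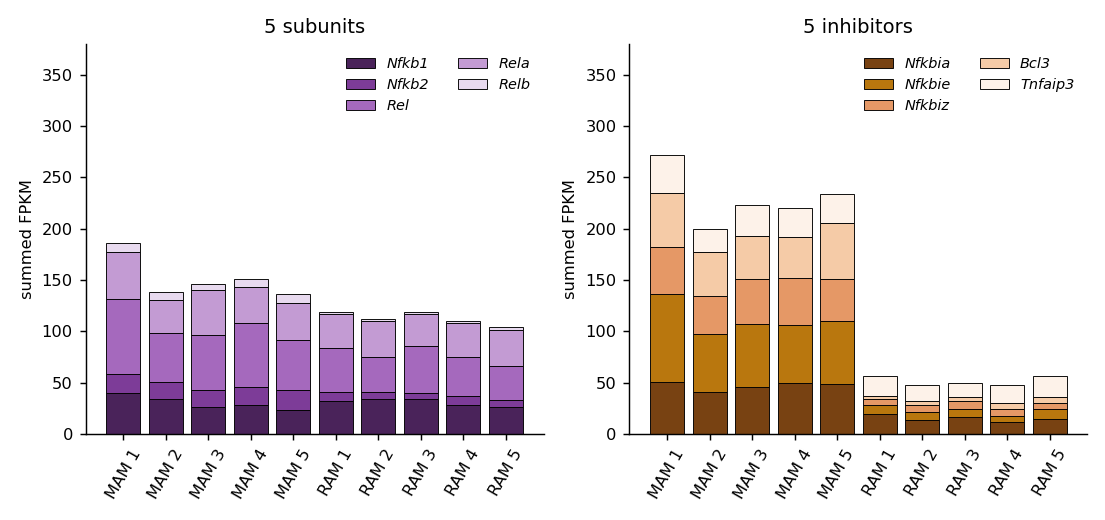
Stacked FPKM of the 5 subunits (left) and the 5 inhibitors (right) in each of the 10 libraries, on the same axis from 0. The inhibitor bars reach 200 to 272 FPKM in MAMs and 47.5 to 56.6 in RAMs, and the subunit bars 137 to 186 and 104 to 119.

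The genes around the members were described by lists of ligands, receptors, adaptors, kinases, ubiquitin factors, other I kappa B genes and target genes. For comparison with the count of each list, 28.9% of all tested genes were higher and 27.3% lower in MAMs. Of 10 ligands 6 were tested, and 4 were higher and 2 lower in MAMs. Il1b, the gene of interleukin-1 beta, was at 263 ± 37.6 CPM in MAMs and 31.1 ± 9.78 in RAMs (SD, n = 5 each), with log2 fold change 3.08. Tnfsf14, the ligand known as LIGHT that engages the lymphotoxin beta receptor, had a log2 fold change of 5.47 at 8.89 CPM in MAMs. Tnfsf13b, the gene of the B cell factor BAFF, had a log2 fold change of -2.55 at 0.975 CPM in MAMs compared with 5.73 in RAMs. Of 13 receptors tested (15 listed) 7 were higher and 2 lower. Cd40 had 41.3 ± 4.62 CPM in MAMs and 0.494 ± 0.172 in RAMs, Tlr9, a receptor of unmethylated DNA, had 155 ± 14.6 and 3.63 ± 0.814, and Tnfrsf11a, the gene of RANK, had 242 ± 2.98 and 52.8 ± 8.62 CPM. These were log2 fold changes of 6.39, 5.41 and 2.2.

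Of 20 adaptors 10 were higher and 3 lower in MAMs. Traf1 was at 43.2 ± 13.6 CPM in MAMs and 0.540 ± 0.357 CPM in RAMs (SD, n = 5 each), a log2 fold change of 6.28, and Ripk2, the kinase that acts below NOD receptors, had a log2 fold change of 1.51. Of 11 kinases and their partners 5 were higher and 3 lower. Ikbke, a kinase related to the I kappa B kinases, was at 153 ± 14.0 CPM in MAMs and 7.99 ± 5.01 in RAMs, with log2 fold change 4.26. Tab2 had a log2 fold change of 1.03 and Map3k14, the kinase that starts the noncanonical branch, 0.88 (edgeR adjusted p = 0.00229). Of 18 ubiquitin factors 9 were higher and 1 lower. Tnip3, a partner of the Tnfaip3 product, had 109 ± 36.9 CPM in MAMs and 1.48 ± 0.742 in RAMs, with log2 fold change 6.20, and Birc3 and Rnf31 had 1.11 and 1.01. Of 6 other I kappa B genes and regulators 2 were higher and 2 lower. Nfkbib, which encodes I kappa B beta, had a log2 fold change of 1.11, Nkiras2 0.76 and Nfkbil1 -1.13. Median log2 fold changes were 0.62 for ligands, 0.44 for receptors, 0.42 for adaptors, 0.21 for kinases, 0.36 for ubiquitin factors and 0.21 for other I kappa B genes, against -0.02 over all tested genes. With library totals alone as the scaling the medians of kinases and of other I kappa B genes were -0.01 each, while the median over all genes was -0.24.

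The target list held 35 of the known target genes of NF-kappa B. It was chosen with earlier results of these data known, so its counts are a description and not independent support. Of the 35 genes 32 were tested, 26 were higher in MAMs and 1 was lower, with a median log2 fold change of 2.72. Over all tested genes 28.9% were higher and 27.3% lower, with a median of -0.02. Differential expression was passed by 24 genes upward and 1 downward, compared with 15.3% and 15.1% of all tested genes. Saa3, an acute phase gene, was at 285 ± 146 CPM in MAMs and 2.70 ± 0.460 in RAMs, and its MAM libraries ran from 119 to 476. Marcks, an actin-binding substrate of protein kinase C, was at 377 ± 42.8 and 3.73 ± 0.415 CPM, and Cd40 came next by change. RAM levels of Saa3, Marcks, Cd40, Traf1 and Tnip3 were 0.944%, 0.991%, 1.20%, 1.25% and 1.36% of their MAM levels, close to the lowest share of 0.912% seen among abundant genes, and whether these values are RNA of the cells themselves was not tested. With 1% of the other group's level subtracted, an alternative chosen after seeing the data, the log2 fold change of Saa3 was 11.65 in place of 6.73, that of Marcks 11.37 in place of 6.66, that of Cd40 8.62, that of Tnip3 8.10 and that of Traf1 7.65, and the target list again had 26 genes higher and 1 lower. The target list shares Il1b, Tnf, Cd40, Traf1 and Birc3 with the lists of ligands, receptors, adaptors and ubiquitin factors. Promoter windows of the tested targets held the kappa B consensus in 10 of 23 genes with a window (43.5%).

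Cell dissociation can induce some of these genes, so immediate early genes were also counted. Of 24 genes 12 were higher and 8 lower in MAMs, with a median log2 fold change of 0.33. Over all tested genes 28.9% were higher and 27.3% lower, with a median of -0.02. Their summed level, 5091 to 5518 CPM for MAMs and 4692 to 5154 for RAMs, overlapped between groups. Among the 8 lower genes the largest log2 fold changes were -2.29 for Fosb, -1.17 for Klf4 and -1.08 for Egr2. Among the 12 higher genes Ier3, also a target of NF-kappa B, had a log2 fold change of 3.70, and the heat shock genes Hspa1a and Hspa1b had 3.43 and 3.21. The last 2 are nearly identical in sequence. The study counted uniquely mapped reads, so reads that fit both genes may be missing from both levels. The part of dissociation in the results on the members was not tested.

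**Figure D4:**
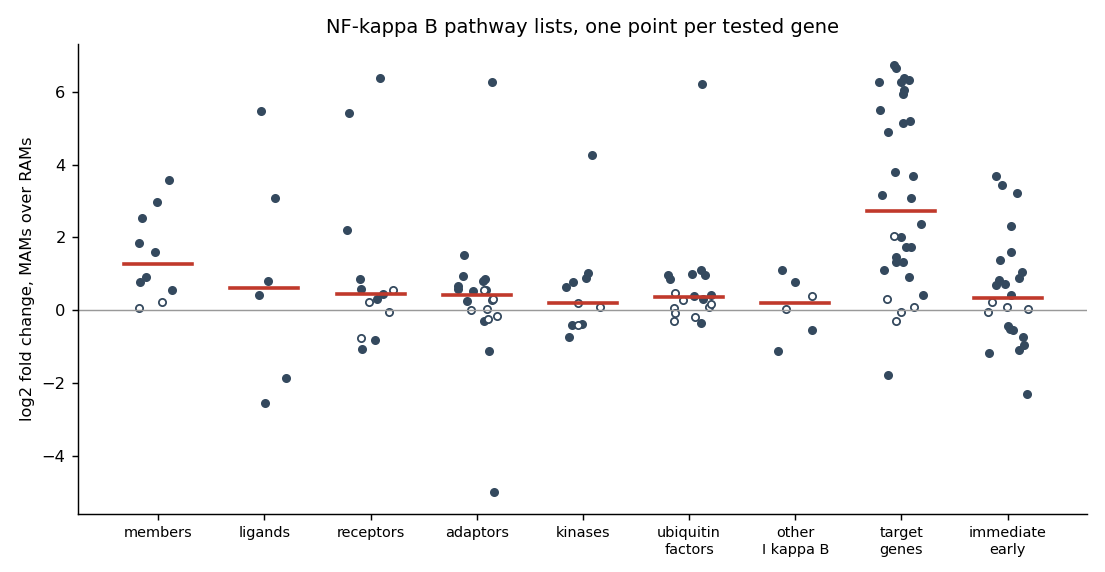
Log2 fold change, MAMs over RAMs, of every tested gene in the members and in 8 lists, with filled points at an adjusted p under 0.05 in edgeR, open points otherwise and a red line at the list median. Medians are 1.26 for members, 2.72 for target genes and 0.21 to 0.62 for the other lists of the pathway, and the highest adaptor is Traf1 at 6.28.

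For each member the tested gene with the most similar pattern was found by Pearson's r of log2 CPM over the 10 libraries, as a description. Since the libraries fall into 2 groups, r includes the gap between them. The closest genes were Cstb for Bcl3 (r = 0.998), Ubr4 for Nfkbiz (0.998), Stat4 for Nfkbie (0.996), Ddx24 for Nfkbia (0.994), Pxk for Relb (0.984), Rab28 for Tnfaip3 (0.984), Cul3 for Rel (0.973) and Psmb6 for Nfkb2 (0.966). Between 566 and 1193 genes had an r over 0.95 with Relb, Nfkbia, Nfkbie, Nfkbiz and Bcl3, and 45 with Nfkb2. Rel and Tnfaip3 each had 9 such genes. Nfkb1 and Rela, which did not pass the test between groups, had none, with Dnajc4 (0.911) and Sparc (0.893) as the closest.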

How the data were processed

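RNA was sequenced from 5 MAM and 5 RAM libraries. The authors aligned reads to the mouse genome (mm10) with TopHat2 2.0.13 and deposited whole-number counts per gene from HTSeq 0.6.1. FPKM values per gene and library were deposited as well, which the authors computed with Cufflinks 2.2.1. The strand setting of the counting and whether mates of a pair were counted separately are not given in the sources used here. All lines of a count file summed to 131053712 to 201197753 per library. This is more than the number of reads per sample in the study's text, and the cause was not tested. Count file lines without a gene entered neither library sizes nor tests, and made up 56.5% ± 1.65 of the lines' total in MAMs and 63.2% ± 0.899 in RAMs (SD, n = 5 each). No molecular identifiers were used, so reads are not independent molecules.

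Genes whose mean FPKM reached 1 in either group and that had a count above 0 were tested with edgeR 4.0.16 (R 4.3.3), TMM normalization over tested genes, quasi-likelihood test of MAMs against RAMs without covariates, and Benjamini-Hochberg adjustment. Log2 CPM used a prior count of 2. Standard errors were computed from the log2 fold change and the F statistic. Same-numbered libraries of both groups did not deviate together (r = -0.0366 to 0.0294), so numbers were not taken as pairs. No libraries of a group were identical. Alternatives were DESeq2 1.42.0, RLE and upper-quartile scaling, library totals alone, edgeR's own filter, no filter, a replicate block, limma 3.58.1 on log2(FPKM + 1) and log2(FPKM + 0.1), CPM per kilobase, each library left out in turn and, chosen after seeing the data, 1% of the other group's level subtracted. The tests were tested on simulated data.

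The members and all lists were chosen with earlier results of these data known. Lists came from general knowledge. All members were named, with the 3 largest changes at an adjusted p under 0.05 in each list of the pathway and of immediate early genes, the most abundant gene of each cell type list, Itgam, Itgax and the most similar gene of each member. An adaptor that this rule names is not reported here. Psd was named for its overlap with Nfkb2, and Tnf because it stands on 2 lists. Cdh1 and Epcam were named for their part in the RAM sum of epithelial and tumor markers. Fosb, Klf4 and Egr2 were named as the largest changes among the lower immediate early genes. Positions of genes were read from GENCODE M21 (GRCm38) and promoter windows from RefSeq (GRCm38.p6).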

Additional observations from a re-analysis of the deposited data

Results flagged for a closer look

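Nfkbie in MAM replicate 1, at 210.7 CPM, stood apart from the other 4 MAM libraries, which lay between 145 and 159.8 CPM. The gap to the nearest library was 0.777 of the range of the group, above Dixon's limit of 0.71 for 5 samples. It was the only such value among 20 groups examined (10 members in MAMs and in RAMs), and chance flags about 1 in 20. Without that library the log2 fold change of Nfkbie was 2.87, and it remained past the threshold.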

How the results depend on the processing

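The counts of members that were higher in MAMs (8) and of members that were differentially expressed (5) changed by less than 1.5 times under every alternative. Nfkb2 was the sixth differentially expressed member with limma on FPKM at either pseudocount, without RAM replicate 1 and without RAM replicate 4. The 8 members kept their direction and their side of the threshold in all 20 alternatives. The log2 fold change of Nfkb1 turned to -0.10 under upper-quartile scaling, -0.16 with library totals alone, -0.026 with limma on log2(FPKM + 1) and -0.027 on log2(FPKM + 0.1), and ran from -0.028 to 0.13 with a library left out, lowest without MAM replicate 1. That of Rela ran from 0.16 to 0.29 with a library left out, and passed the threshold without MAM replicate 2. The cause was not tested. Upper-quartile scaling and library totals shifted the median of all genes by -0.16 and -0.23, and the share of higher genes among those changed was 51.4% in the main fit, 40.3% and 36.4% with these scalings. Differentially expressed genes numbered 3511, and 2909 to 4672 over the alternatives. With the replicate number as a block there were 3526, and 8 members were changed as before, so the replicate block changed no call on a member. With CPM per kilobase in place of FPKM, shares of the subunits were 31.2% (MAMs) and 38.4% (RAMs) for Nfkb1, 23.7% and 20.8% for Rel, 8.31% for Nfkb2 in RAMs and 1.70% for Relb in RAMs, and shares of the inhibitors were 22.7% and 17.5% for Nfkbiz and 17.6% for Bcl3 in MAMs. The cause of these moves was not tested. The number of changed genes in each of 8 lists stayed within 1.5 times, and the split of the ubiquitin factors went from 9 higher and 1 lower to 6 and 3 under upper-quartile scaling and 6 and 4 with library totals alone. The lowest count of a member in a library was 165 (Relb).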
